A study of Homo sapiens with 39 samples.

Results

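CB103 is known as a small molecule that keeps the Notch transcription complex from assembling on DNA. In this series it was given to OCILy10, an established line of diffuse large B cell lymphoma of the activated B cell type. The libraries described here are the 3 OCILy10 libraries labelled CB103 and the 3 labelled DMSO, the vehicle. They are 6 of the 39 RNA-seq libraries of the series and were chosen by their names in the table of raw counts. All 6 had been treated for 6 h, and the groups differ in their labels by the compound alone. The same line was also treated for 6 h with 2 other compounds, in 3 libraries each: OTX015 (birabresib), an inhibitor of BET bromodomains, and NEO2734, known to inhibit the bromodomains of BET proteins and of CBP/p300. No dose is given for any compound. Nothing in the labels tells separate cultures from repeat libraries of one culture. The p-values therefore measure the spread between libraries, which may be technical. Label text shared by the whole series names other compounds and a longer treatment, and each sample's own label was used.

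Notch receptors are cut by ADAM proteases and gamma-secretase once a ligand on a neighbouring cell has bound them. The freed intracellular domain enters the nucleus and joins the DNA-binding protein RBPJ and a Mastermind coactivator, which brings in EP300 and turns on targets such as HES1, HEY1, NRARP, DTX1 and MYC. Without that domain, RBPJ is held with corepressors. In B cells the pathway is best known for NOTCH2, which is needed for marginal zone B cells.

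The 6 libraries differed in depth and 1 of them carried transcripts of another line. The DMSO libraries held 10044245, 6717808 and 2083572 counts, and the CB103 libraries 11430777, 2620323 and 1192826. Libraries above 5000000 counts are called deep below and the others shallow, so DMSO had 2 deep libraries and CB103 had 1. Between 7.10 and 11.6% of each library's counts fell on mitochondrially encoded genes. Genes found in Toledo, a line of the germinal centre type, but not in OCILy10 were used as a check: the median of 124 such genes was 19.9% of the Toledo level in CB103 replicate 2 and at most 0.274% in the other 5 libraries. In the same library 127 genes of OCILy10 stood at a median of 71.4% of the OCILy10 DMSO level, against 85.4 to 103% in the other 5. The DMSO libraries among these 5 set that level. The OTX015 and NEO2734 libraries of OCILy10 stood at 58.7 to 70.4%, with the Toledo genes at 0%. A value of this size is therefore not particular to the library that carried Toledo transcripts. The column of CB103 replicate 1 differs between the deposited tables of counts. The table of raw counts was used throughout, and the other column is described at the end.

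**Figure D1:**
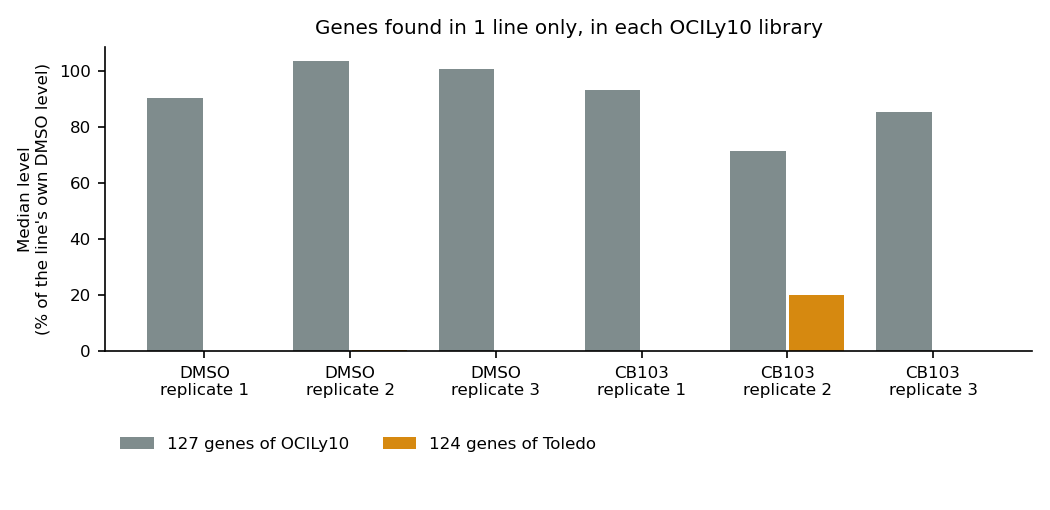
Median level of 127 genes found in OCILy10 but not Toledo (grey) and of 124 genes found in Toledo but not OCILy10 (orange) in each of the 6 OCILy10 libraries, as a percentage of the level in the DMSO libraries of the line they belong to. The orange bar stands at 19.9% in CB103 replicate 2 and at most 0.274% in the other 5 libraries.

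Markers of cell type were looked at in the 6 libraries, and CB103 replicate 2 stood apart in some. All 9 pan B cell markers and all 14 markers of the activated B cell type were tested, and none passed the test between CB103 and DMSO described next. None of the 12 germinal centre, 4 T cell and 8 plasma cell markers tested passed either. The test compares the groups and does not show the levels themselves. IRF4, a transcription factor that marks the activated type, stood at 742, 759 and 829 CPM (counts scaled to library size with TMM factors) with DMSO and at 802, 362 and 762 CPM with CB103. The low value is that of replicate 2. MME, the surface marker CD10 of germinal centre cells, was at 1.49, 1.73 and 2.01 CPM with DMSO and at 0.776, 68.5 and 3.68 CPM with CB103. Here replicate 2 alone was high, and Toledo held 405 CPM. Of the 8 monocyte markers only CSF1R, ITGAM and LYZ had a row in the table, at no more than 4.61 CPM in any of the 6 libraries, and none passed the filter on low counts.

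No gene passed the test between CB103 and DMSO. With edgeR's quasi-likelihood test and Benjamini-Hochberg adjustment, 0 of the 12814 genes tested had an adjusted p under 0.05 (0%), and the lowest adjusted p was 0.372. At an unadjusted p under 0.05 there were 273 genes, or 2.13%. They were split unevenly: 257 had the higher value with CB103 (2.01%) and 16 the lower value (0.125%). The 2.13% lies below the share of 0.05 that evenly spread p-values would give, so the test was cautious here. The main fit held no term for depth. Log2 levels in CB103 replicate 3 correlated at 0.972 with DMSO replicate 3, also shallow, and at 0.851 with CB103 replicate 1. CB103 replicate 1 correlated at 0.990 with DMSO replicate 2, also deep. With depth as a covariate edgeR again called 0 genes. limma-voom also called 0 genes, and DESeq2 called 26, all of them higher with CB103. The SE of a log2 difference had a median of 0.48 over the genes tested, so changes of small size could not be detected with these 6 libraries. With p-values adjusted over 12814 genes, larger changes could be missed as well. The lack of calls does not show that CB103 left the genes unchanged.

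The higher values followed the Toledo transcripts in CB103 replicate 2. A gene is called a Toledo gene here where the mean of Toledo DMSO replicates 1 and 3 was at least 1 CPM and at least 4 times the mean of the OCILy10 DMSO libraries, a rule that uses the same DMSO libraries as the comparison. It took 859 genes, or 6.70% of those tested. Of the 257 genes with a higher value at an unadjusted p under 0.05, 241 were Toledo genes, against 1 of the 16 with a lower value. Without CB103 replicate 2, 13192 genes were tested and 0 passed with edgeR, with 10 higher (0.0758%) and 22 lower (0.167%) at an unadjusted p under 0.05. Without CB103 replicate 1 edgeR called 92 genes, and the 26 of DESeq2 and these 92 were all Toledo genes. No other single library left out gave a call.

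**Figure D2:**
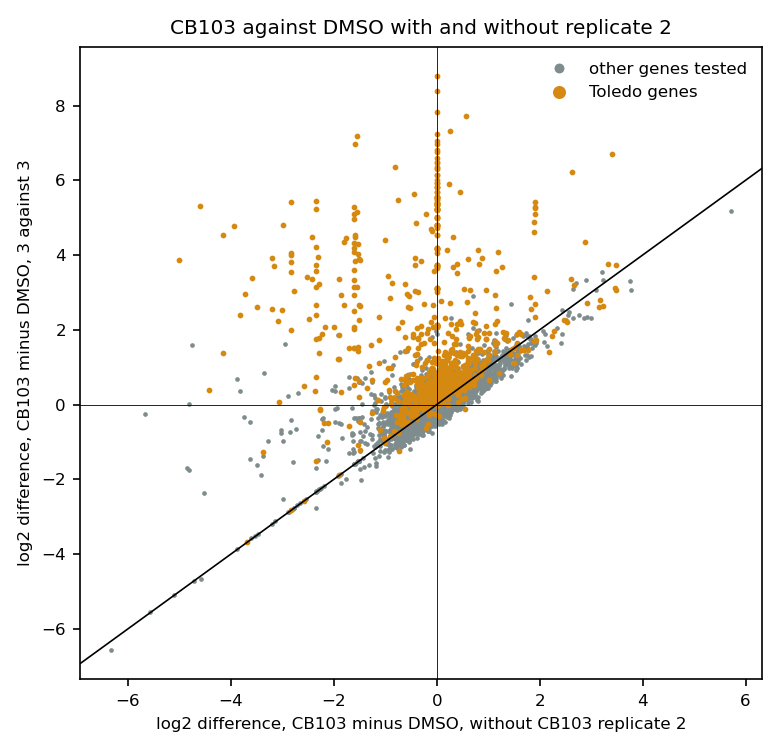
Log2 difference between CB103 and DMSO for each gene tested, with all 3 CB103 libraries (vertical axis) and without CB103 replicate 2 (horizontal axis). Orange points are Toledo genes, grey points the other genes tested, and the diagonal marks equal values; the orange points far above the diagonal are Toledo genes such as ELAPOR1, at 5.91 with and 0.24 without replicate 2.

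The 10 genes of lowest p with a higher value, at a mean of at least 5 CPM in either group, were all Toledo genes: ELAPOR1, HMGN5, GAS7, SMARCA2, OAT, SORT1, JUP, MAN1A1, BZW2 and NAV1. ELAPOR1, a membrane protein of the endosomal and lysosomal system, stood at 0.532, 0.432 and 0 CPM with DMSO and at 0.431, 78.0 and 0.921 CPM with CB103. Its level in Toledo was 284 CPM. MAN1A1, a mannosidase of the Golgi, was at 0, 1.44 and 0.502 CPM with DMSO and at 0, 77.6 and 0 CPM with CB103, with 372 CPM in Toledo. In both genes CB103 replicate 2 alone was high, and the other CB103 libraries stood close to the DMSO libraries. NAV1, a cytoskeletal protein, was the 1 gene of the 10 whose groups did not overlap, at 1.60, 2.16 and 2.01 CPM with DMSO and at 3.70, 17.1 and 3.68 CPM with CB103. Groups that did not overlap were found in 2.42% of all genes tested, with CB103 higher in 1.11% and lower in 1.31%. These shares lie below those that a random order of 3 against 3 libraries would give.

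The 10 genes of lowest p with a lower value held no Toledo gene, and 3 of them belong to cholesterol synthesis. They were PDCD6, SQLE, FDFT1, STYXL1, HMGCS1, MTFMT, VPS33A, ERG28, MED11 and GLRX, and none passed (edgeR adjusted p 0.627 to 1). PDCD6, a calcium-binding protein of vesicle transport (chromosome 5, 271621 to 353856, GRCh38), stood at 134, 116 and 125 CPM with DMSO and at 105, 103 and 78.3 CPM with CB103. The groups did not overlap, as in all of these 10 genes but MED11, against 1.31% of all genes tested with CB103 lower. The 10 genes were picked by p from the same libraries, so that count adds no support. PDCD6 differed by -0.39 ± 0.12 on the log2 scale (SE, edgeR adjusted p = 0.627). It stood at -0.45 without CB103 replicate 2.

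The Notch pathway was read through 98 genes in 8 lists of receptors, ligands, processing enzymes, complex members, corepressors, trafficking factors and targets. Of these, 85 had a row in the table, 79 were tested and 0 passed, against 0% of all genes. For reference, the median log2 difference over all genes tested was 0.03 and 45.8% of them had a value below 0.

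Neither of the 2 receptors tested differed beyond the spread of the libraries, which was wide. NOTCH1 (chromosome 9, 136494433 to 136545786) stood at 17.1, 55.0 and 12.05 CPM with DMSO and at 44.5, 33.1 and 8.29 CPM with CB103. The groups overlapped over nearly their whole range, and the log2 difference was 0.05 with a 95% interval of -1.73 to 1.83 (edgeR adjusted p = 1). NOTCH2 (chromosome 1, 119911553 to 120069626) stood at 159, 264 and 129 CPM with DMSO and at 254, 178 and 146 CPM with CB103. Its log2 difference was 0.07 (95% interval -1.09 to 1.23). Single libraries set the sign of both values. Without DMSO replicate 2 they were 0.99 for NOTCH1 and 0.42 for NOTCH2, without CB103 replicate 1 they were -0.41 and -0.19, and with the other deposited column for CB103 replicate 1 they were -0.63 and -0.23. NOTCH3 was in the table but did not pass the filter, at no more than 3.02 CPM. Among the ligands JAG1 alone was tested, at 16 counts in all over the DMSO libraries and 11 over the CB103 libraries.

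The enzymes that cut and glycosylate the receptors gave a median log2 difference of 0.14 over 14 genes, 10 above 0 and 4 below. ADAM10, the protease of the first cut, stood at 59.1, 63.1 and 91.4 CPM with DMSO and at 67.4, 76.1 and 102 CPM with CB103. The groups overlapped. Of the 14 genes PSENEN had the lowest value, -0.47, and FURIN the highest, 0.39.

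The complex that CB103 is aimed at was expressed in every library. RBPJ (chromosome 4, 26163455 to 26435131) stood at 125, 152 and 148 CPM with DMSO and at 115, 148 and 169 CPM with CB103. The log2 difference was 0.03 ± 0.20 (SE, edgeR adjusted p = 1), one of the narrowest intervals in the pathway, -0.37 to 0.42. MAML1, a Mastermind coactivator, stood at 26.2, 26.9 and 39.7 CPM with DMSO and at 31.0, 38.04 and 47.9 CPM with CB103. EP300, the histone acetyltransferase of the complex, stood at 174, 269 and 264 CPM against 263, 196 and 279 CPM. Over the 8 complex genes tested, 5 were above 0 and 3 below, with a median of 0.04.

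The corepressors of RBPJ had a median log2 difference of 0.15 over 14 genes, and without the Toledo genes TLE1 and CTBP2 it was 0.11 over 12. TLE1, a corepressor of the Groucho family, stood at 1.81, 0.576 and 0.502 CPM with DMSO and at 1.47, 6.47 and 0.921 CPM with CB103. Only replicate 2 was high. SPEN, the scaffold that brings histone deacetylases to RBPJ, stood at 95.2, 196 and 205 CPM against 170, 178 and 216 CPM. The 15 trafficking and turnover genes tested had a median of 0.06. Among them FBXW7, the ubiquitin ligase that marks the intracellular domain for decay, stood at 43.6, 34.4 and 73.8 CPM with DMSO and at 46.1, 54.4 and 104 CPM with CB103, and these groups overlapped as well.

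**Figure D3:**
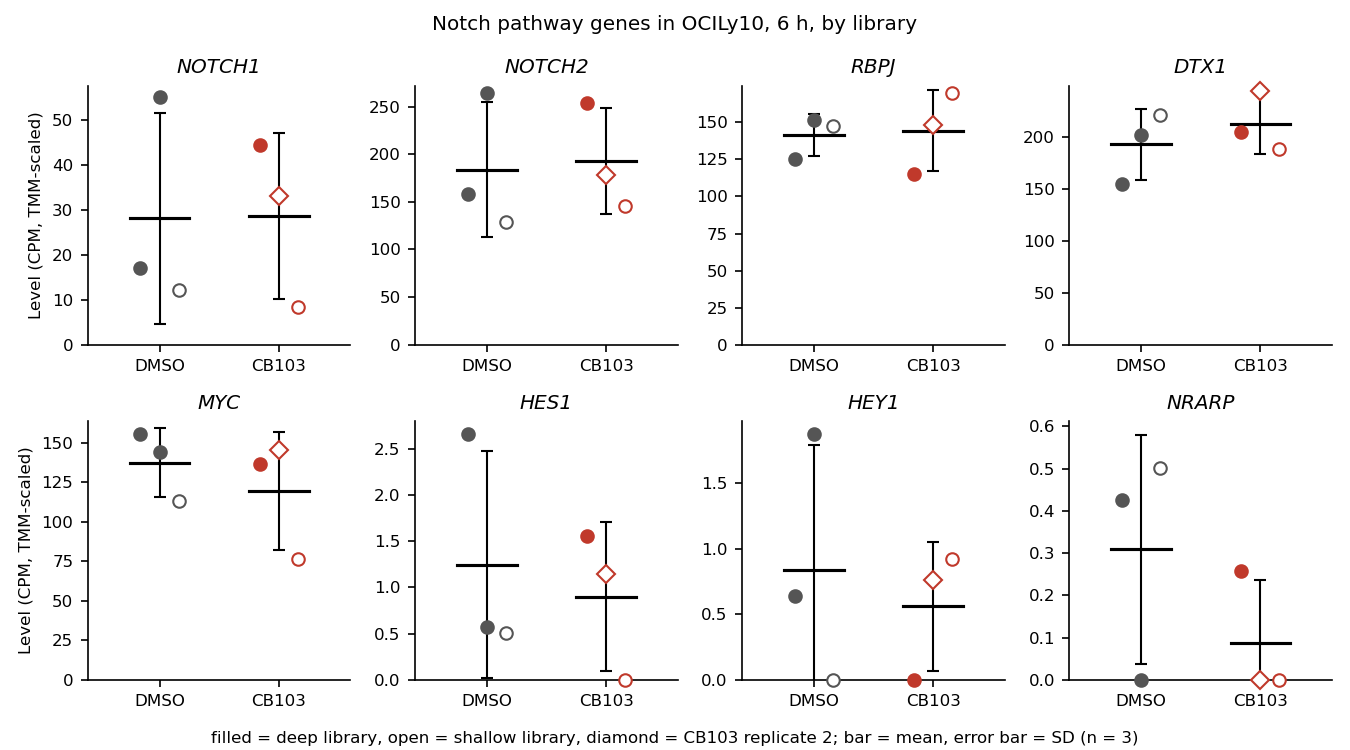
Levels of 8 Notch pathway genes (CPM, TMM-scaled) in the 3 DMSO (grey) and 3 CB103 (red) libraries of OCILy10; filled points are deep libraries, open points shallow ones, the diamond is CB103 replicate 2, and bars are means with SD (n = 3). The groups overlap in all 8 genes, and HES1, HEY1 and NRARP lie below 3 CPM in every library.

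Most classical targets of Notch were at or near the detection limit in OCILy10. Of 20 genes listed 13 had a row and 10 were tested, 7 with a value below 0, and their median was -0.27. With the other deposited column for CB103 replicate 1, and without the Toledo gene of the list, the direction turned: 6 of 9 were above 0 with a median of 0.32. HES1, the repressor that is the best known target, held 30 counts over the DMSO libraries and 21 over the CB103 libraries. Its levels were 2.66, 0.576 and 0.502 CPM with DMSO and 1.55, 1.14 and 0 CPM with CB103. HES1 differed by -0.31 on the log2 scale, with a 95% interval of -2.07 to 1.44, so neither a large decrease nor a large increase could be seen at this depth. NRARP, a feedback inhibitor of the complex, held 5 counts against 3, a ratio of 0.718 with a 95% exact counting interval of 0.111 to 3.69. HEY1, a repressor related to HES1, held 19 counts against 3, a ratio of 0.189 (0.0358 to 0.642). By library its level was 0.639, 1.87 and 0 CPM with DMSO and 0, 0.761 and 0.921 CPM with CB103, and the groups overlapped. These intervals cover counting error only. HES4 is not analysed here.

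IL7R, a cytokine receptor chain, had the lowest p of the classical targets (edgeR adjusted p = 1). It held 4 counts over the 3 DMSO libraries and 0 over the 3 CB103 libraries, where a count of 0 allows up to 0.196 CPM over the group. The pooled DMSO level was 0.218 CPM, so the difference rests on 4 reads. HEY2 and HES6 had values above 0. HEY2 is a Toledo gene and stood at 5.33 CPM in CB103 replicate 2 and at no more than 1.51 CPM in the other 5 libraries. Without that replicate its log2 difference moved from 2.34 to -0.06, and that of HES6 from 0.90 to 0.07.

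The well expressed targets showed no difference beyond the spread of the libraries. DTX1 (chromosome 12, 113056709 to 113098028), a ubiquitin ligase that regulates Notch and is itself a target in B cells, stood at 155, 202 and 222 CPM with DMSO and at 205, 245 and 189 CPM with CB103. DTX1 differed by 0.14 on the log2 scale (95% interval -0.55 to 0.84). MYC stood at 155, 144 and 113 CPM with DMSO and at 136, 145 and 76.5 CPM with CB103. Its log2 difference was -0.20 (95% interval -1.09 to 0.70), and in each gene the groups overlapped. MYC was lowest in replicate 3 of both groups, which are their shallowest libraries.

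The DNA word that RBPJ is known to bind, GTGGGAA, was looked up on both strands in the 250 bases before the annotated starts of the classical and B cell targets that were tested, from RefSeq (GRCh38.p14). Of 26 genes, 20 had a promoter in the table, with 31 starts. DTX1, MYC, HEY1, BLK, CCR7 and LYN had none there and were not searched. The word was found at 4 of the 31 starts, those of HES1, HEY2, FCER2 and SH2B2, and at 5.43% of all 35116 promoters. The 4 windows of 60 bases are shown 5′ to 3′ in the gene's own direction because they place the pathway's best known motif beside the values of its genes, with the word (or its reverse complement) in capitals.
HES1, 85 bases before the start, chr3:194136037-194136096 (plus strand): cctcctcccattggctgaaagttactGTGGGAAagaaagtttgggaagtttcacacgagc
HEY2, 213 bases before the start, chr6:125749393-125749452 (plus strand): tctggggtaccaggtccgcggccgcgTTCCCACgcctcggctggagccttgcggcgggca
FCER2, 187 bases before the start, chr19:7702285-7702344 (minus strand): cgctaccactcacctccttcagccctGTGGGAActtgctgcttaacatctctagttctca
SH2B2, 113 bases before the start, chr7:102289327-102289386 (plus strand): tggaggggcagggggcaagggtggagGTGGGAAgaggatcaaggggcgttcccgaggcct
The log2 differences of these 4 genes were -0.31, 2.34, -0.72 and 0.26. Without CB103 replicate 2 they were -0.36, -0.06, -0.52 and 0.22. None passed. FCER2, a low-affinity receptor for IgE, held 12 counts over the DMSO libraries and 13 over the CB103 libraries, a ratio of 1.30 (95% exact counting interval 0.545 to 3.11), so its pooled counts and its fitted value differ in sign. Over the alternatives each of the 4 values took both signs, and no direction can be read from them.

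Genes that have been tied to Notch in B cell lymphoma gave 14 of 17 values below 0 with a median of -0.14. The share varied with the libraries used: without CB103 replicate 2 and the Toledo gene FYN, 10 of 16 were below 0 with a median of -0.11. Also without FYN, 9 of 16 were below 0 without DMSO replicate 2, and 7 of 16 within the deep libraries. Leaving out other single libraries gave medians from -0.23 (without CB103 replicate 1) to -0.03 (without DMSO replicate 2), and within the deep libraries the median was 0.09. LYN, a kinase of the B cell receptor, had the lowest p after FYN. It stood at 279, 225 and 227 CPM with DMSO and at 251, 146 and 195 CPM with CB103, and Toledo held 57.1 CPM. SYK, the next kinase of that pathway, stood at 633, 447 and 320 CPM against 607, 304 and 305 CPM. IL21R, a cytokine receptor, stood at 104, 177 and 241 CPM against 154, 189 and 218 CPM. All 3 overlapped between groups. Among the 17 genes none had groups that were apart, against 2.42% of all genes tested, so this count says little about the list.

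The genes of cholesterol synthesis had lower values with CB103 in nearly every case, although none passed the test. Their list was chosen with earlier results of these data known. Of 22 tested, 19 had a log2 difference below 0 with a median of -0.36, and in 7 genes all CB103 libraries were below all DMSO libraries, against 1.31% of all genes tested. The list held 2 Toledo genes, and DHCR7, the last enzyme of the pathway, stood at no more than 0.502 CPM with DMSO and at 6.85 CPM in CB103 replicate 2. Without the Toledo genes 19 of 20 values were below 0 and the median was -0.42. Only CYP51A1, at no more than 5.33 CPM, lay above 0.

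SQLE, the epoxidase that makes the first sterol precursor from squalene, stood at 112, 102 and 119 CPM with DMSO and at 64.2, 83.3 and 64.5 CPM with CB103. All CB103 values were below all DMSO values, and the log2 difference was -0.65 ± 0.22 (SE, edgeR adjusted p = 0.755). FDFT1, which makes squalene, stood at 236, 184 and 198 CPM with DMSO and at 145, 108 and 118 CPM with CB103. It differed by -0.73 ± 0.26 (edgeR adjusted p = 0.884). HMGCS1, the synthase at the start of the mevalonate pathway, stood at 388, 374 and 578 CPM against 250, 223 and 364 CPM, a log2 difference of -0.68 ± 0.29 (adjusted p = 1). The groups were apart in all 3 genes. SQLE and FDFT1 lie on chromosome 8 and HMGCS1 on chromosome 5.

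Groups were also apart in MSMO1, HSD17B7 and STARD4, named after their values were seen. MSMO1, a demethylase late in the pathway, stood at 186, 140 and 127 CPM with DMSO and at 106, 70.0 and 76.5 CPM with CB103. HSD17B7, a sterol ketoreductase, stood at 17.6, 14.8 and 12.5 CPM against 11.03, 10.3 and 5.53 CPM. ERG28, which is no member of the list but is known as a scaffold of the sterol C-4 demethylation enzymes, was among the 10 lowest p above, at 86.4, 66.2 and 57.7 CPM against 50.5, 41.5 and 37.8 CPM.

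Depth and the Toledo transcripts both moved with these values in part. In Toledo HMGCS1 stood at 152 CPM, FDFT1 at 94.3 CPM and MSMO1 at 44.7 CPM, below OCILy10, while SQLE stood at 98.1 CPM, close to it. Without CB103 replicate 2, 20 of 20 values were below 0 with a median of -0.35. Within the deep libraries 16 of 20 were below 0 (median -0.35), within the shallow ones 19 of 20 (median -0.55), and no gene of the list passed in any of these fits. With the other deposited column for CB103 replicate 1 it was 13 of 20 (median -0.31).

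**Figure D4:**
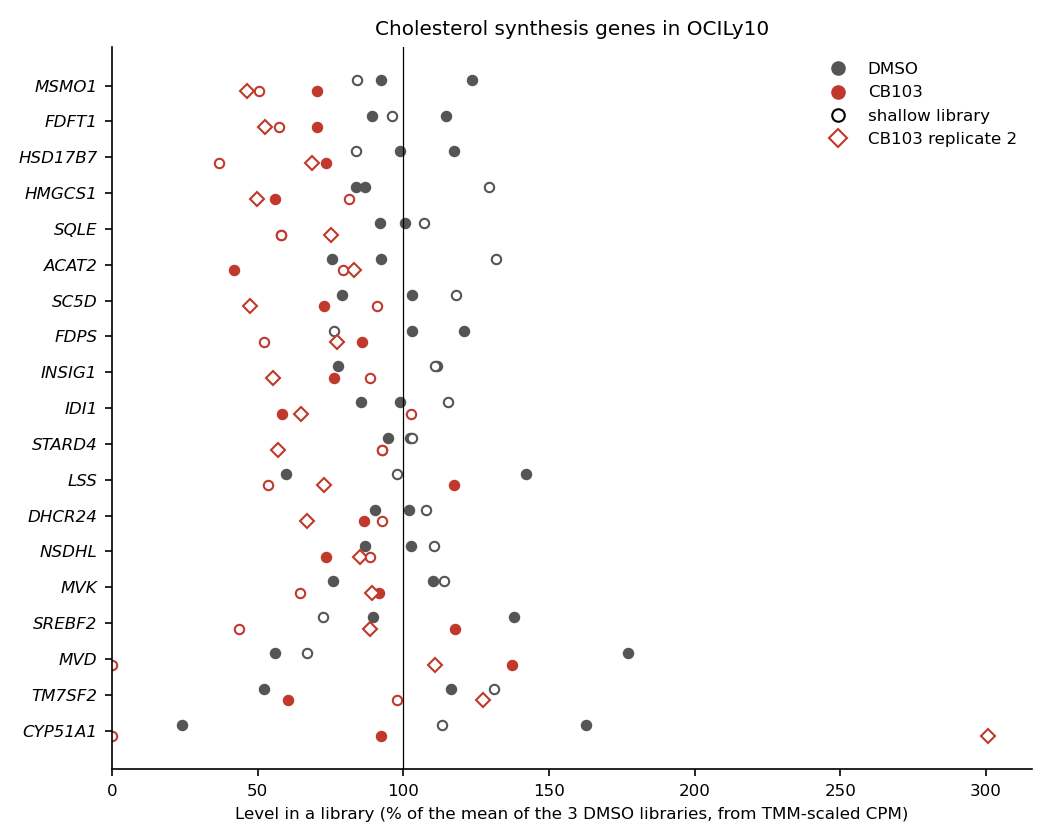
Level of each of 19 cholesterol synthesis genes tested that are no Toledo genes, in each library, as a percentage of the mean of the 3 DMSO libraries; grey is DMSO, red CB103, open points shallow libraries and the diamond CB103 replicate 2. The red points of SQLE, FDFT1, HMGCS1, MSMO1, HSD17B7 and STARD4 all lie to the left of their grey points.

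Stress genes of the endoplasmic reticulum leaned the other way, again with 0 called. Of 22 genes of the unfolded protein and ATF4 response, 18 had values above 0 with a median of 0.24. HSPA5, the main chaperone of the endoplasmic reticulum, stood at 592, 369 and 527 CPM with DMSO and at 665, 535 and 707 CPM with CB103, with a log2 difference of 0.36 ± 0.23 (SE, edgeR adjusted p = 1). CB103 replicate 2 was the 1 value inside the DMSO range that kept the groups from being apart. PDIA4, a protein folding enzyme of the same compartment, stood at 171, 143 and 234 CPM against 220, 238 and 328 CPM. The lean varied with the libraries used. Leaving out CB103 replicate 1 gave 10 of 20 values above 0 with a median of -0.02, without the Toledo genes, whereas leaving out replicate 2 gave 19 of 20 and 0.33. Within the shallow libraries, which do not include CB103 replicate 1, it was 16 of 20 and 0.26. Within the deep libraries, where replicate 1 stands alone for CB103, it was 20 of 21 and 0.44. With the other deposited column for CB103 replicate 1 it was 13 of 20 and 0.17. Without DMSO replicate 3 it was 12 of 21 and 0.09.

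Interferon-stimulated genes had 24 of 32 values below 0 (median -0.24) and NF-kB targets 23 of 28 (median -0.23), with 0 called in each. TNF, a cytokine under NF-kB control, stood at 10.2, 12.5 and 16.1 CPM with DMSO and at 7.24, 4.18 and 6.45 CPM with CB103. These groups were apart, with a log2 difference of -1.09 ± 0.68 (SE, edgeR adjusted p = 1). RSAD2, an antiviral enzyme, stood at 2.45, 4.89 and 6.02 CPM against 2.15, 1.52 and 1.84 CPM, also apart. Toledo held 0.158 CPM of TNF and 0.0788 CPM of RSAD2. Without CB103 replicate 2 the interferon list had 25 of 31 values below 0 (median -0.31) and the NF-kB list 18 of 27 (median -0.08). Without DMSO replicate 3 the NF-kB list had 15 of 27 (median -0.09), and the interferon list had medians of -0.51 without DMSO replicate 1 and -0.15 without replicate 2. With the other deposited column for CB103 replicate 1 the NF-kB list changed sign, with 18 of 27 values above 0 (median 0.23).

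Lists of B cell signalling and growth had medians close to that of all genes. The B cell receptor pathway had a median of 0.03 over 27 genes, MYC targets 0.07 over 38, cell cycle genes 0.07 over 31 and p53 targets -0.05 over 21. BCL10, an adaptor between the B cell receptor and NF-kB, had the lowest p of the receptor list and stood at 55.4, 37.6 and 34.6 CPM with DMSO and at 39.3, 19.8 and 34.1 CPM with CB103. The groups overlapped. No gene of these 4 lists passed, and none had groups apart, against 2.42% of all genes tested.

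Heat shock genes had 11 of 13 values above 0 with a median of 0.26, and 0 passed. HSP90AA1, a cytosolic chaperone, stood at 3318, 2815 and 8690 CPM with DMSO and at 2387, 6283 and 13181 CPM with CB103. Shallow libraries were the highest of each group, and Toledo held 9985 CPM. Without the Toledo gene HSPA1B the median was 0.21, and it was -0.21 without CB103 replicate 3, -0.22 within the deep libraries and 0.00 within the shallow ones.

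Metallothioneins and their zinc transporter had a median of 0.27 over 6 genes, 4 above 0, which became -1.23 without CB103 replicate 1 and -0.11 without DMSO replicate 3. Immediate early genes had 14 of 22 values below 0 (median -0.12), and markers of BET inhibition 6 of 10 (median -0.15). With the other deposited column for CB103 replicate 1 and without Toledo genes, both turned, to medians of 1.20 and 0.16. Hypoxia genes had a median of 0.09 over 22 and NRF2 targets 0.01 over 16. In these 5 lists 0 genes passed as well.

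Set directly against the BET inhibitors in the same line, CB103 did give called genes. Doses are unknown, so the compounds were not compared at matched doses. Against OTX015, edgeR called 7 genes (0.0546% of those tested), 4 higher with CB103 (0.0312%) and 3 lower (0.0234%). Against NEO2734 it called 142 (1.11%), 74 higher (0.577%) and 68 lower (0.531%), of which 34 were Toledo genes. Without CB103 replicate 2 the counts were 6 against OTX015 and 42 against NEO2734, of which 6 and 39 were among the genes called with all 3 libraries. Leaving out CB103 replicate 1 gave 121 and 289, with 104 and 156 Toledo genes among them. Leaving out OTX015 replicate 3 gave 2, while the count against NEO2734 was 46, 34 and 29 without its replicate 1, 2 and 3 in turn.

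More genes met looser limits, which a share of all genes would meet by chance without any difference. These counts are therefore no counts of genes that differ. At an unadjusted p under 0.05 there were 904 genes against OTX015 (7.05%), 566 higher (4.42%) and 338 lower (2.64%), and 1579 against NEO2734 (12.3%), 955 higher (7.45%) and 624 lower (4.87%). The groups did not overlap in 1276 genes against OTX015 (9.96%), 716 higher (5.59%) and 560 lower (4.37%). Against NEO2734 they did not overlap in 2293 genes (17.9%), 1203 higher (9.39%) and 1090 lower (8.51%). With 3 against 3 libraries in random order, a share about as large as the 9.96% against OTX015 would be apart. Toledo genes made up 261 of the 904 and 292 of the 1579.

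PAX5, the transcription factor that holds B cell identity (chromosome 9, 36833275 to 37034185), was higher with CB103 than with either inhibitor. It stood at 302, 317 and 282 CPM with CB103, against 129, 88.2 and 123 CPM with OTX015 and 72.0, 73.4 and 77.0 CPM with NEO2734. The log2 difference was 1.40 ± 0.23 against OTX015 (SE, edgeR adjusted p = 0.00714) and 2.02 ± 0.24 against NEO2734 (adjusted p = 1.61e-05). With DMSO it stood at 228, 352 and 352 CPM, so CB103 lay in the DMSO range. LAT2, an adaptor of B cell receptor signalling, ZMYND8, a chromatin reader, and ST3GAL5, which makes the ganglioside GM3, were likewise higher than with OTX015, by 1.41, 1.20 and 1.65 on the log2 scale. They were also called against NEO2734, as was IRF2, an interferon regulatory factor, by 1.32.

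ALKBH5, an RNA demethylase, was lower with CB103 than with either inhibitor. It stood at 61.0, 65.1 and 72.8 CPM with CB103, against 276, 303 and 485 CPM with OTX015 and 316, 308 and 561 CPM with NEO2734. ALKBH5 differed by -2.42 ± 0.30 on the log2 scale against OTX015 (SE, edgeR adjusted p = 0.000105) and -2.58 ± 0.31 against NEO2734 (adjusted p = 1.61e-05). DMSO stood at 49.0, 50.4 and 74.8 CPM. HYCC1, which helps place a lipid kinase at the plasma membrane, and NRBP1, a pseudokinase, were also lower than with OTX015, with log2 differences of -0.91 and -0.73. With the other deposited column for CB103 replicate 1, the sign of ALKBH5 turned, to 1.17 against OTX015 and 1.03 against NEO2734.

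ALKBH5 and HYCC1 passed against OTX015 with any single library left out. PAX5 did not pass without OTX015 replicate 2 (adjusted p = 0.0857) or 3 (0.0531), nor did LAT2 (0.109 and 0.136). ZMYND8 did not pass without CB103 replicate 3 (0.0970) or OTX015 replicate 1 (0.147) or 3 (0.115), and ST3GAL5 was lost without the same libraries (0.0701, 0.0595 and 0.180). NRBP1 was lost without CB103 replicate 2 (0.216) or 3 (0.103) and without OTX015 replicate 1 (0.147), 2 (0.144) or 3 (0.114).

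**Figure D5:**
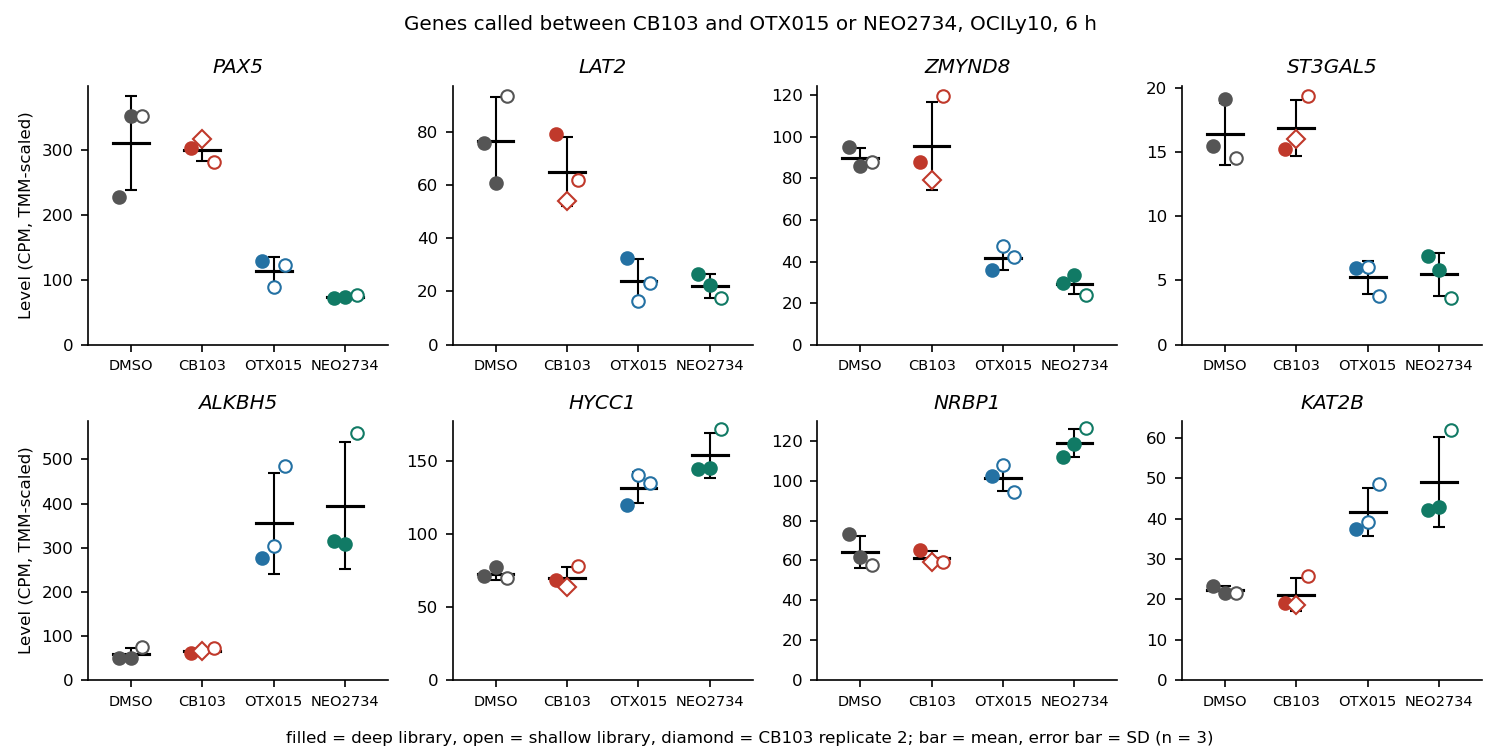
Levels (CPM, TMM-scaled) of the 7 genes called between CB103 and OTX015, and of KAT2B, called between CB103 and NEO2734, in the 4 OCILy10 groups; filled points are deep libraries, open points shallow ones, the diamond is CB103 replicate 2, and bars are means with SD (n = 3). In each panel the CB103 points lie among or near the DMSO points and apart from both inhibitors.

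Of the 79 Notch genes tested, 1 was called against NEO2734, where 1.11% of all genes were called, and 0 against OTX015, so the Notch lists did not stand out from the background. KAT2B, an acetyltransferase that can join the Notch complex (chromosome 3, 20040023 to 20154404), stood at 19.1, 18.6 and 25.8 CPM with CB103 and at 42.2, 42.9 and 61.9 CPM with NEO2734. The log2 difference was -1.22 ± 0.27 (SE, edgeR adjusted p = 0.0180), and against OTX015 it was -0.99 ± 0.27 (adjusted p = 0.151). DTX1 stood at 205, 245 and 189 CPM with CB103 and at 70.9, 87.9 and 94.9 CPM with NEO2734, and its log2 difference of 1.33 ± 0.35 did not pass with edgeR (adjusted p = 0.0510) but did with DESeq2 (adjusted p = 0.00552). KAT2B did not pass without CB103 replicate 2 (edgeR adjusted p = 0.119) or NEO2734 replicate 3 (0.127). Among the pan B cell markers POU2AF1 and EBF1, both B cell transcription regulators, were higher than with NEO2734 by 2.25 and 1.70. POU2AF1 was lost without NEO2734 replicate 2 (0.0742) or 3 (0.0652), and EBF1 without any single library of either group but CB103 replicate 1 (0.0652 to 0.236). Against DMSO no pan B cell marker passed, with log2 differences from -0.27 to 0.37 over the list that holds both genes. SQLE, FDFT1 and HMGCS1 had values below 0 against both inhibitors, from -0.51 to -0.37, and none passed.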

How the data were processed

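Counts per gene for 39 libraries came from tables of whole-number counts that the authors deposited. Per the submitters' processing notes STAR, edgeR and the build hg38 were used. The counting program, annotation and strand setting were not stated there or in the labels. Antisense or overlapping genes may therefore share reads. Of 15808 gene IDs, 15668 matched GENCODE 29 by ID without version.

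In R 4.3.3, edgeR 4.0.16 (quasi-likelihood, TMM, filterByExpr by group) was fitted to all 39 libraries in 13 groups (26 residual degrees of freedom), with contrasts of CB103 against DMSO, OTX015 and NEO2734 in OCILy10. Genes with an adjusted p under 0.05 were called, and p-values were adjusted over the 12814 genes tested. Levels are CPM. SEs were set so that intervals match the p-values. The script was tested on simulated data. No libraries agreed within sampling noise. Alternatives were limma 3.58.1, DESeq2 1.42.0, other scalings and filters, a replicate block, depth, each library left out, Toledo genes left out and the other deposited table; 3 combinations were added after seeing the data. Totals of 1192826 to 11430777 counts limit low genes.

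Up to 10 genes of lowest p each way, the Notch lists, up to 3 members of lowest p in each response list and up to 5 called genes of the direct comparisons each way were named. Genes, lists and tests were chosen with earlier results of these data known. Some listed genes are not reported here.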

Additional observations from a re-analysis of the deposited data

Results flagged for a closer look

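The other deposited table gives different values in 1 of its 39 columns, that of CB103 replicate 1, where 14746 genes differ and the total is 5474462 counts in place of 11430777. The column entered only the alternatives, and its high values are listed here because they stand above the control libraries. In CPM, 44 of the 12814 genes tested were at 10 CPM or more and at least 4 times above the highest of the 6 OCILy10 DMSO and CB103 libraries, and 19 of these also above all 12 OCILy10 libraries by that margin. The 5 with the highest level were chosen after their values were seen. ALKBH5 stood at 1469 CPM in that column, against at most 74.8 CPM in the DMSO libraries and 561 CPM in any of the 12. It is therefore not among the 19. EGR1, an immediate early transcription factor, stood at 919.7 CPM against at most 14.6 CPM. DUSP2, a phosphatase of MAP kinases, stood at 554 CPM against at most 84.9 CPM. With up to 155 CPM in the 12 libraries it is not among the 19 either. CCL3, a chemokine, stood at 288 CPM against at most 10.6 CPM. MYBPC2, a gene named for a myosin-binding protein, stood at 246 CPM against at most 56.2 CPM. A further 394 genes were at least 4 times below the lowest of the 6 libraries. The 124 Toledo transcripts had a median of 0% in this column and the 127 OCILy10 genes one of 56.2%. In the OTX015 and NEO2734 libraries of OCILy10 the latter was 58.7 to 70.4%. Which column belongs to the labelled library was not tested.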

How the results depend on the processing

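Between CB103 and DMSO no gene was called with all libraries, and leaving out 1 library gave 0 to 92 calls. The replicate block gave 14 calls, DESeq2 26 and the other column for CB103 replicate 1 gave 16, or 29 without CB103 replicate 2, a combination chosen after seeing the data. All other alternatives gave 0. Toledo genes made up all 92, 14 and 26 calls, 15 of the 16 and 11 of the 29.

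Against OTX015 (7 calls) leaving out 1 library gave 2 to 121, and against NEO2734 (142 calls) 29 to 289. The replicate block gave 84 and 643, or 29 and 227 without CB103 replicate 2, and depth as a covariate gave 82 and 604, or 34 and 328 without it. limma-voom called 30 and 276 and DESeq2 94 and 367. The libraries of each comparison alone gave 0 and 0, the deep libraries alone 0 and 0 and the shallow ones alone 1 and 1, with fewer samples in each fit. The other deposited table gave 31 against OTX015. Against NEO2734 there were 90 calls without the 3 libraries that held genes of another line and 93 without the Toledo genes. In the other deposited table ALKBH5 stood at 1.17 against OTX015 and 1.03 against NEO2734, and LMO2 at 1.09 against NEO2734, all with the sign reversed. The cause of these shifts was not tested.

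Whether equal replicate numbers pair the libraries could not be settled. The deviations of same-numbered DMSO and CB103 libraries correlated at 0.67, 0.05 and 0.74. Only replicate 3 correlated best with its own number in both groups. These values cannot tell pairing from depth: DMSO replicates 1 and 2 and CB103 replicate 1 are deep, and replicate 3 is shallow in both groups. CB103 replicate 2 also carried Toledo transcripts. Depth limits genes of few counts, HES1, HEY1, NRARP and IL7R among them.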
